A study of Mus musculus with 38 samples.

Results

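Neural stem cell identity genes are the genes whose products are used to recognise or sort neural stem/progenitor cells (NSPCs) or that keep these cells self-renewing. The set described here holds 8 genes, taken by symbol: Nes, Vim, Fabp7, Prom1, Msi1, Msi2, Nr2e1 and Thbs4. These are 8 of the 25965 genes in the RNA table, and their transcription start sites (TSSs) account for 35 of the 72923 promoter windows in the ChIP table. NSPCs were grown from the subventricular zone (SVZ), the neurogenic niche beside the lateral ventricles, as free-floating neurospheres in a medium with EGF and basic FGF, and were harvested at passage 2. Young adult (3 months) and aged (18 months) male C57BL/6J/Babr mice each gave 3 derivations on different days, each pooled from 5 mice. A further pair of RNA libraries, 1 per age, came from C57BL/10 mice kept in another facility. No group carried a transgene, a deletion or a drug treatment, and all were compared as cultured cells rather than as tissue.

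The genes fall into 3 kinds by role. Nes (nestin) and Vim (vimentin) encode intermediate filament proteins that assemble together in the processes of radial glia and NSPCs, and Fabp7 encodes the brain fatty acid binding protein of radial glia. Prom1 encodes prominin-1 (CD133), a membrane protein of protrusions and primary cilia by which adult NSPCs are sorted, and Thbs4 encodes a secreted matrix protein of the SVZ. Msi1 and Msi2 encode the Musashi RNA-binding proteins, which regulate the translation of target transcripts such as Numb, and Nr2e1 encodes an orphan nuclear receptor (Tlx) that represses transcription and keeps adult NSPCs self-renewing. At promoters, H3K4me3 marks sites of transcriptional initiation, H3K27me3 is the mark of Polycomb repression, and both can lie on the same promoter. 5-methylcytosine (5mC) is usually low where H3K4me3 is high.

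The promoters of these genes differed in CpG content, and the 250 bases before the TSS are shown for those that carry the contrasts described further on. These are Nes, Vim and Fabp7 for H3K27me3 values that differed between ages but did not exceed Input, both start sites of Prom1 for opposite chromatin states within a gene, and Thbs4 for a silent gene. Sequences are from RefSeq on GRCm38.p6, 5′ to 3′ on the strand of the gene, with each CG dinucleotide in capitals. They lie at chr3:87970843-87971092 on the plus strand (Nes), chr2:13574061-13574310 on the plus strand (Vim), chr10:57784673-57784922 on the plus strand (Fabp7), chr5:44101737-44101986 on the minus strand (Prom1, upstream start), chr5:44094769-44095018 on the minus strand (Prom1, downstream start) and chr13:92794819-92795068 on the minus strand (Thbs4), each ending at the base before the TSS.
Nes: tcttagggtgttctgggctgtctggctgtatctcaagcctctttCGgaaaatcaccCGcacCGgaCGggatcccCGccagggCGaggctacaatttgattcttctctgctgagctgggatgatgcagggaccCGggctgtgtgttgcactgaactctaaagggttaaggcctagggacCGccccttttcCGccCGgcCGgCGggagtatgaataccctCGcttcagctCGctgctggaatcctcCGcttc
Vim: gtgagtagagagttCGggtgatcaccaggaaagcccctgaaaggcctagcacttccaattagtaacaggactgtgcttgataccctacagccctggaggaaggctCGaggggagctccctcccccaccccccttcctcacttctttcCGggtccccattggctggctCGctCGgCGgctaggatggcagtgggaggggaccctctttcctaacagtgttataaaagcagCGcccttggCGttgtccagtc
Fabp7: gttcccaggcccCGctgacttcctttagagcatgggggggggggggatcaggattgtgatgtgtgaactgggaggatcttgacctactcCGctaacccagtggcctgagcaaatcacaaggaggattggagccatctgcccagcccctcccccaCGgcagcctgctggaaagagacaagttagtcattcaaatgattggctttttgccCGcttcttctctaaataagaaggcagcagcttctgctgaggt
Prom1 upstream start: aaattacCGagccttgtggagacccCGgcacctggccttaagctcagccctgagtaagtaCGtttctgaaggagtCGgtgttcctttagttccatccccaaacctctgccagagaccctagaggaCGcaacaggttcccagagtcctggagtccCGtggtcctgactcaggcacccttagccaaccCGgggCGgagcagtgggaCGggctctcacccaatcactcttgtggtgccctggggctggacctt
Prom1 downstream start: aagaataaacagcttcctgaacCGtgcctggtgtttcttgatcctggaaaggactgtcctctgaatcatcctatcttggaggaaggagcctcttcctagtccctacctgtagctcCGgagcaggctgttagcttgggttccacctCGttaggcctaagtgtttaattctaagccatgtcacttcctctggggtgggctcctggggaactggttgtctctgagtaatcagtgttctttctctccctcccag
Thbs4: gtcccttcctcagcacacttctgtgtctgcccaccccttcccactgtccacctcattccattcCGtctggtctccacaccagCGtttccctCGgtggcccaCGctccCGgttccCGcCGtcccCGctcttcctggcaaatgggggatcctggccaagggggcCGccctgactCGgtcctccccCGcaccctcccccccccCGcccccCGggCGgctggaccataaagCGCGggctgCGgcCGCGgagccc

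Over 32851 RefSeq promoters the median was 6 CGs in these 250 bases. Nes held 15, Thbs4 19, Prom1 9 at the upstream and 3 at the downstream start, Vim 8 and Fabp7 4. Nr2e1 held 15, and the 3 overlapping stretches of Msi2 held 29 to 30, more than at least 93.2% of promoters. RefSeq entries matched 7 of the 8 genes by symbol, with 10 start sites. On either strand, TATAAA (the TATA box) was found in Vim alone among them, and in 12.4% of all promoters. CCAAT occurred at 2 places in Vim, 2 in Fabp7 and 1 each in Msi2 and the upstream Prom1 promoter, and in 33.8% of all promoters. GGGCGG (the GC box, which contains a CG) occurred at 3 places in Thbs4, 2 in Nes, 2 to 3 in Msi2 and 1 in the upstream Prom1 promoter, and in 32.7% of all. TGGGAA, the core of the RBPJ site, occurred once each in Fabp7, Nr2e1, Thbs4 and the upstream Prom1 promoter and in 21.6% of all, and AAGTCA, to which Nr2e1 binds, once in Fabp7 and in 13.1% of all. No match to ATGCAAAT (octamer; 1.601% of all promoters) or ACAAAG (SOX; 16.5%) lay in these windows.

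RNA libraries held 16952486 to 41053972 reads each, of which 65.5% to 69.3% lay on genes. The expression values are log2 RPM, reads scaled by the library total. Summed levels of the markers of other cells were 7.65 to 12.1 RPM for 7 microglial genes, 2.20 to 3.99 for 6 pericyte genes, 11.1 to 26.3 for 5 endothelial genes, 16.0 to 41.9 for neuroblast and neuronal genes and 52.2 to 133 for 5 ependymal genes. Astrocyte genes, which NSPCs share in part, reached 1303 to 1844 RPM and oligodendrocyte lineage genes 1169 to 1644. Because these are bulk cultures, fewer cells of a type and less RNA per cell cannot be told apart.

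Vim was the fifth most abundant transcript by mean log2 RPM, Fabp7 the 14th and Nes the 23rd, out of 25965. Msi2 stood at rank 425, Msi1 at 3485, Nr2e1 at 4992 and Prom1 at 10305. Thbs4 was at rank 16566 and close to silent. Per kilobase of merged exons (GENCODE vM21), the order over the 8 libraries was Fabp7 with 976 to 1996 RPM per kb, Vim with 576 to 970, Nes with 200 to 276 and Msi2 with 19.6 to 27.5. Fabp7 and Vim came close, with the lowest Fabp7 library just above the highest Vim library. Msi1 followed with 6.75 to 10.2 RPM per kb and Nr2e1 with 7.42 to 9.74, ranges that overlapped, so these neighbours were not ordered. Prom1 had 0.784 to 1.37 RPM per kb. The Prom1 value may include reads of the antisense gene Gm16401, which covers 5.91% of its exon length, since the library kit did not keep strand.

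**Figure D1:**
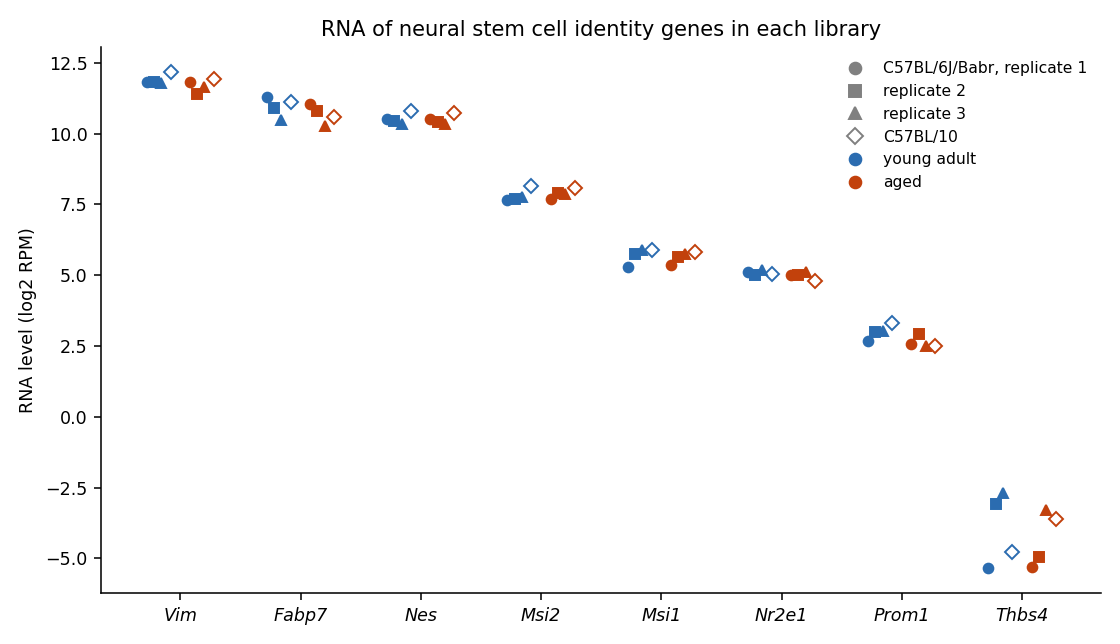
RNA level (log2 RPM) of the 8 genes in each of 8 libraries, young adult in blue and aged in orange, with the C57BL/6J/Babr replicates as filled circles, squares and triangles and the C57BL/10 libraries as open diamonds. The genes spread from Vim at 11.42 to 12.17 down to Prom1 at 2.49 to 3.30, and Thbs4 sits at the level of 0 to 4 reads.

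Thbs4, which marks SVZ stem cells in tissue, was represented by 1, 2 and 4 reads in the young adult libraries and 1, 0 and 4 in the aged libraries, and by 1 and 2 reads in the young adult and aged C57BL/10 libraries. A count of 0 allows up to 3 reads, so every library lay at or near that limit. The gene did not pass the abundance filter (log2 RPM averaging -2 or more), and no fold change is given for it. The other 7 genes passed.

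None of the 7 genes differed between ages beyond the spread between derivations. With limma's moderated test on log2 RPM, 0 of 14858 genes had an adjusted p under 0.05 (background 0%), and 0 of the 7. At an unadjusted p under 0.05 there were 258 genes in all and none of the 7. On recovered reads, edgeR (quasi-likelihood) called 0 genes (257 at an unadjusted p under 0.05) and DESeq2 called 4, none of them among the 7. The young adult and aged ranges overlapped in every one of the 7, where 5.20% of the genes tested had ages that did not overlap.

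Among the filament genes, Nes was at 10.53, 10.43 and 10.34 log2 RPM in young adult replicates 1, 2 and 3 and at 10.52, 10.42 and 10.32 in the aged replicates. Libraries with the same replicate number were thus closer to each other than to the other derivations of their age, and the difference between ages was -0.01 ± 0.13 (SE, n = 3 and 3; limma adjusted p = 1.00). Vim was at 11.82, 11.82 and 11.80 in young adult NSPCs and at 11.82, 11.42 and 11.64 in aged NSPCs. Aged replicates 2 and 3 lay below all young adult libraries and aged replicate 1 among them, with a difference of -0.19 ± 0.19 (limma adjusted p = 1.00), or -0.085 without aged replicate 2. Under quantile normalization, in which a gene of the same rank in every library takes the same value, the difference of Nes turned to 0.07 and that of Vim to 0.

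Fabp7 spread most between derivations. It was at 11.29, 10.90 and 10.47 log2 RPM in the young adult replicates and at 11.04, 10.80 and 10.25 in the aged, highest in replicate 1 and lowest in replicate 3 at both ages. The difference was -0.19 ± 0.27 (limma adjusted p = 1.00), and the 95% interval of this fit, -0.80 to 0.43, leaves room for sizeable changes either way. With limma blocked by replicate number, as described below, the interval was -0.37 to -0.01 (limma adjusted p = 0.568). Prom1 was at 2.69, 3.00 and 3.04 in young adult and 2.55, 2.92 and 2.49 in aged NSPCs. Its difference of -0.26 ± 0.17 (95% interval -0.65 to 0.13; limma adjusted p = 1.00) was the largest of the 7 and rested on 136 to 265 reads a library.

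For the RNA-binding proteins and the nuclear receptor the differences were small. Msi1 was at 5.29, 5.73 and 5.89 in young adult and 5.36, 5.63 and 5.73 in aged NSPCs, a difference of -0.06 ± 0.16. Msi2 was at 7.67, 7.69 and 7.77 against 7.68, 7.89 and 7.85, a difference of 0.10 ± 0.09. Nr2e1 was at 5.10, 5.02 and 5.18 against 5.00, 4.99 and 5.11, a difference of -0.06 ± 0.09. All 3 had a limma adjusted p of 1.00. In this fit, without pairing, the 95% interval of -0.26 to 0.13 for Nr2e1 bounds the change more tightly than for any other of the 7 genes. With limma blocked by replicate number, as described below, it was -0.22 to 0.09, and that of Msi2 was the narrowest, at -0.04 to 0.24.

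Same-numbered libraries of the 2 ages were compared directly, since their deviations went together across genes. Nes, Vim, Fabp7, Prom1 and Nr2e1 were lower in the aged library in 3 of 3 replicate numbers, whereas 13.3% of the genes tested were lower in all 3. These genes share the same 3 pairs of libraries. For Nes the differences were only -0.004, -0.014 and -0.011, and for Vim that of replicate 1 was -0.003. The signs of Nes and Vim depended on the scaling, since quantile normalization gave differences between ages of 0.07 and 0. The summed level of the 7 astrocyte genes, of which Gjb6 had no read in any library, was lower too, at 1496 to 1764 RPM in young adult and 1312 to 1386 in aged C57BL/6J/Babr libraries and at 1844 and 1303 in C57BL/10. Aldh1l1 made up 59.8% to 76.1% of this sum, and without it the other genes summed to 408 to 499 RPM in young adult and 331 to 527 in aged C57BL/6J/Babr libraries, ranges that overlapped. Of the 6 astrocyte genes tested 0 were called, and their part in the differences of the identity genes was not tested. The oligodendrocyte lineage sum went the other way, at 1169 to 1353 RPM in young adult and 1307 to 1405 in aged C57BL/6J/Babr libraries, ranges that overlapped. In C57BL/10 it was at 1350.5 and 1644. Msi2 was higher in 3 of 3, as were 15.9% of the genes tested. When limma was blocked by replicate number it called 74 of 14858 genes (0.498%) and 0 of the 7. At an unadjusted p under 0.05 this blocked fit had 1229 genes (8.27%) and 1 of the 7, Fabp7. The smallest adjusted p among the 7 was that of Fabp7, at -0.19 ± 0.08 (limma adjusted p = 0.568, unadjusted p = 0.0414), followed by Prom1 at -0.26 ± 0.12 (limma adjusted p = 0.630). The median difference of the 7 genes was -0.06 on the log2 scale, against 0.0015 over all genes tested.

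**Figure D2:**
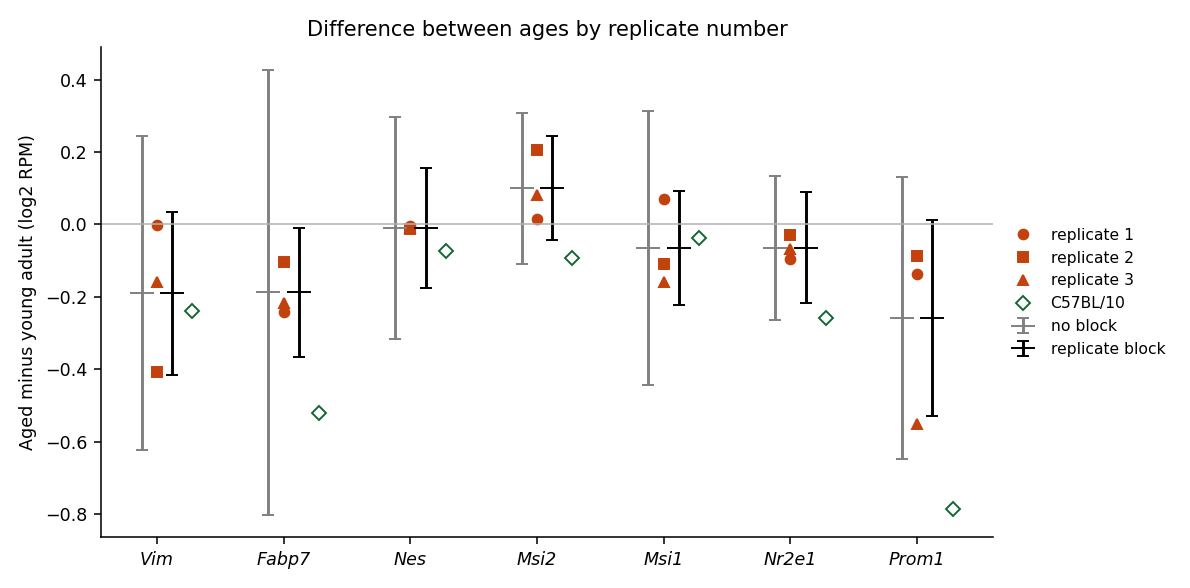
Aged minus young adult RNA level (log2 RPM) of the 7 genes tested, for each replicate number (filled symbols) and for the C57BL/10 pair (open diamonds), with the limma estimate and its 95% interval without (grey) and with (black) the replicate block. Without the block every interval crosses 0, and with it only that of Fabp7, from -0.37 to -0.01, does not. In the blocked limma fit 8.27% of all genes tested had an unadjusted p under 0.05.

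Replicate numbers, taken over both ages, differed in 2 of the 7 genes, near the share of 22.0% over all genes tested. An F test of the replicate number in the blocked limma fit called 3263 of 14858 genes (22.0%) and, among the 7, Fabp7 (limma adjusted p = 0.000653) and Msi1 (limma adjusted p = 0.00550). Averaged over the ages, Fabp7 spanned 0.80 log2 units between replicate numbers and Msi1 0.49. They ran in opposite orders: Fabp7 was highest in replicate 1 and lowest in replicate 3, and Msi1 lowest in replicate 1 and highest in replicate 3, at both ages. The other 5 genes spanned 0.13 to 0.34 (limma adjusted p from 0.257 to 0.475). The edgeR F test and quantile normalization called Fabp7 and Msi1 too, among 3595 and 3062 genes.

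The C57BL/10 libraries expressed the same 7 genes. Nes was at 10.79 log2 RPM in the young adult and 10.71 in the aged library, Vim at 12.17 and 11.93, Fabp7 at 11.11 and 10.59, Prom1 at 3.30 and 2.51, Msi1 at 5.87 and 5.83, Msi2 at 8.16 and 8.07 and Nr2e1 at 5.04 and 4.78. For Msi2, Nes and Vim, both C57BL/10 libraries lay above all 6 C57BL/6J/Babr libraries, as they did for 31.6% of the genes tested. All 7 genes were lower in the aged than in the young adult C57BL/10 library, by 0.04 (Msi1) to 0.79 (Prom1), as were 52.3% of the genes tested, with 1 library per age and hence no spread of their own.

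Strain, facility and derivation cannot be told apart here. At equal age, limma called 4405 of 14828 genes between the strains (29.7%; 2697 higher and 1708 lower in C57BL/10) and 1 of the 7, Msi2, at 0.36 ± 0.09 (limma adjusted p = 0.0155). The median over all genes was 0.17 at this scaling. On TMM-scaled reads the median was -0.0064, edgeR called 2572 genes (17.3%; 630 higher and 1942 lower), Msi2 was at 0.18 (edgeR adjusted p = 0.226) and Nr2e1 was called lower, at -0.32 (edgeR adjusted p = 0.0237), where limma had -0.15 ± 0.09 (limma adjusted p = 0.198). Nes, at 0.33 ± 0.12 with limma (adjusted p = 0.0604), and Vim, at 0.33 ± 0.16 (limma adjusted p = 0.147), were at 0.15 each on that scale. Quantile normalization called 4553 genes (30.7%) and 3 of the 7, with Vim at 0.43 (limma adjusted p = 0.0232), Nes at 0.35 (limma adjusted p = 0.0274) and Msi2 at 0.31 (limma adjusted p = 0.0261). Msi2 was called by limma with each of the C57BL/6J/Babr libraries left out. Without the young adult C57BL/10 library its limma adjusted p was 0.275, and without the aged one 0.0555.

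Whether age acted alike in both strains was tested as an interaction. With 1 C57BL/10 library per age, the spread came from the 6 C57BL/6J/Babr libraries, and the lone libraries were assumed to vary like them. Limma called 1 of 14828 genes (0.00674%) and none of the 7. The largest interaction among the 7 was that of Prom1, at -0.53 ± 0.34 (95% interval -1.31 to 0.25; limma adjusted p = 1.00). Blocking by replicate number called 36 genes (0.243%) and none of the 7, with Prom1 at an adjusted p of 0.796 in limma.

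Partners and targets of these genes were read from fixed lists, and none of their members was called between ages by limma without or with the block. Of 7 intermediate filament genes tested, Gfap, the astrocyte filament that NSPCs share, had the largest difference, at -0.54 ± 0.17 (limma adjusted p = 1.00 without and 0.0875 with the block), followed by Des, the muscle filament desmin, at -0.40 ± 0.63. Of 6 paralogs and partners tested, the largest were Prom2 at -0.28 ± 0.50 and Fabp3 at -0.21 ± 0.33. The 4 Musashi-bound transcripts had Robo3 at -0.41 ± 0.48 and Dcx at -0.36 ± 0.47, and the 5 Nr2e1 co-repressors had Bcl11a at 0.71 ± 0.54 and Hdac5 at 0.25 ± 0.14. Among 5 genes that Nr2e1 represses, Gfap was lower as above and S100b was at 0.39 ± 0.26. List medians were -0.18 for the filament genes, -0.14 for the paralogs and partners, -0.19 for the Musashi-bound transcripts, 0.15 for the co-repressors and -0.02 for the repressed genes, against 0.0015 over all genes tested.

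Among NSPC transcription factor and signalling genes, Egfr, the EGF receptor, was at 0.17 ± 0.10 and Hes1, a Notch effector, at 0.14 ± 0.20 (limma adjusted p = 1.00 for both). Of the 13 quiescent NSPC genes 0 were called, with Gfap as above and Aldoc, a glycolytic enzyme of astrocytes, at -0.44 ± 0.19 (limma adjusted p = 0.137 with the block). Among activated NSPC genes, Dlx2 was at -0.79 ± 0.46 and Dlx1 at -0.46 ± 0.23 (limma adjusted p = 1.00 for both), both homeobox factors of the neuronal lineage, and Dlx2 had a limma adjusted p of 0.138 with the block. Dll1, a Notch ligand named after its values were seen, went the other way, at 0.42 ± 0.15 (limma adjusted p = 1.00 without and 0.0575 with the block).

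The gene whose profile over the 8 libraries was most like each of the 7 was found by the root mean square distance of centred log2 RPM, among 9854 genes with a mean of at least 3. Nes was closest to Zmat2 (distance 0.018), Vim to Cox17 (0.027), Msi2 to Rasa2 (0.030), Nr2e1 to Ap3m1 (0.034) and Msi1 to Tspan9 (0.050). Fabp7 and Prom1, which varied most, had the most distant neighbours, Tmsb4x (0.126) and Antxr2 (0.141). The median distance to all candidates was 0.18 for Nes and 0.37 for Fabp7.

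ChIP values are log2 RPM in windows of 5000 bp centred on a TSS, with 1 deposited value per age, so they are compared without a test. Windows of a gene overlap and share reads. A window was counted as changed at a fold of 1.5 with a log2 RPM above 1 at an age. For each gene the window with the highest H3K4me3 is given first.

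H3K4me3 marked 7 of the genes in both ages, and was low at Thbs4. H3K4me3 was at 6.93 in young adult and 7.12 in aged NSPCs at Nr2e1, 6.77 and 6.97 at Nes, 6.68 and 6.89 at Vim, 6.40 and 6.54 at Msi2, 6.09 and 6.24 at Fabp7, 5.61 and 5.81 at Msi1 and 5.49 and 5.65 at Prom1. These values were above those of 75.2% to 99.7% of genes in their age. Thbs4 was at 1.61 and 2.06, above 40.4% and 41.8% of genes. The aged value was higher by 0.14 to 0.44 in all 8, as it was by a median of 0.21 over all windows above the level, and 0 of the 35 windows passed the fold (background 0.204%). With the level at 0, again 0 of the 35 passed (background 2.14%, and 2.02% lower). With Input subtracted, 6 of the 35 passed, all higher, in Vim, Fabp7 and Thbs4 (background 2.70%), as the Input of Vim and Fabp7 was lower in aged NSPCs. After quantile normalization the same 8 differences ran from -0.09 to 0.47.

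**Figure D3:**
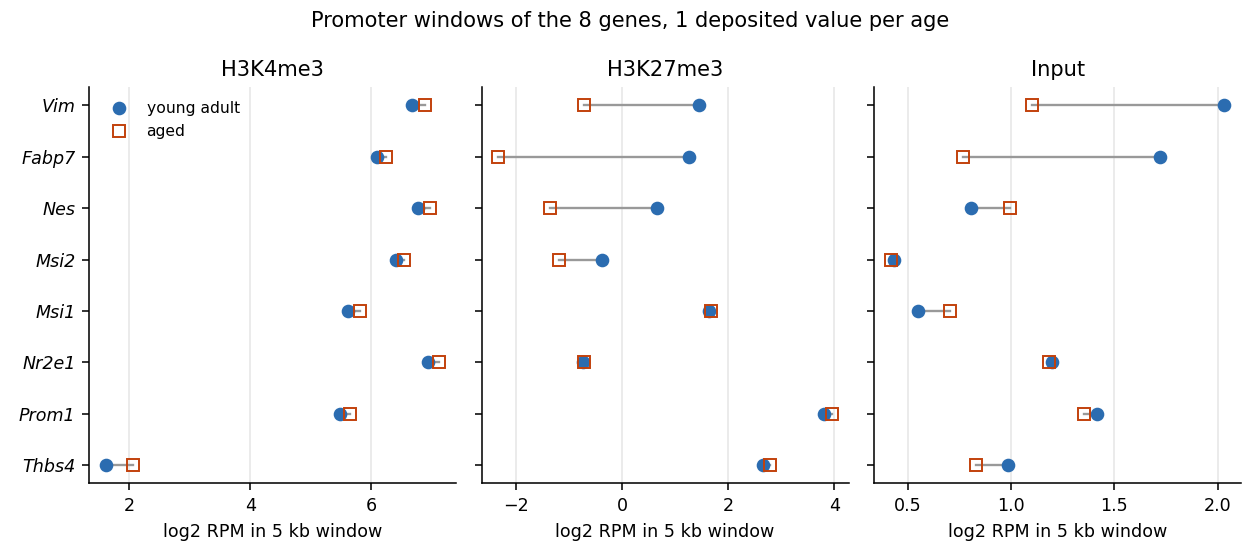
Deposited values (log2 RPM) for both marks, H3K4me3 and H3K27me3, and for Input, in the 5000 bp window with the highest H3K4me3 of each gene, young adult as filled circles and aged as open squares, 1 value per age and mark. H3K27me3 of Vim, Fabp7 and Nes is lower in aged NSPCs, and the Input of Vim and Fabp7 is lower too. H3K27me3 of Prom1, Msi1, Thbs4 and Nr2e1 differs between ages by 0.14 or less.

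H3K4me3 also separated start sites within genes. The upstream Prom1 start sites carried it and the downstream start, in the same gene, was at -0.67 and -1.17, above 19.2% and 17.9% of genes. In Nr2e1 the windows of 3 start sites at the 5′ end were at 6.62 to 6.93 in young adult NSPCs and the one at the fourth, further downstream, was at -0.63. In Msi2 the 5′ windows were at 6.29 to 6.40 and the internal one at 1.87. Along Msi1 the young adult level went from 5.61 to 2.99 between the 5′ and the most internal windows.

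H3K27me3 set Prom1, Thbs4 and Msi1 apart. Prom1 was at 3.81 in young adult and 3.95 in aged NSPCs, above 95.2% of genes at both ages, on the same window as its H3K4me3 and with an Input of 1.42 and 1.35. Thbs4 was at 2.65 and 2.78, above 89.4% and 90.0% of genes, against an Input of 0.98 and 0.83. Msi1 was at 1.63 and 1.67, against an Input of 0.55 and 0.70. Nr2e1 was at -0.74 and -0.72 and Msi2 at -0.37 and -1.19, each below its Input in both ages. Other windows of Msi1 and Nr2e1 were lower in aged NSPCs, by -1.70 to -0.74 in the 5 internal windows of Msi1 and by -1.88 to -0.91 in the other 3 of Nr2e1, again below Input at both ages. In Msi2 the 5′ windows were lower by -0.90 to -0.59 and the internal one was higher by 0.74, also below Input. Both windows of Thbs4 were higher, by 0.13 and 0.19.

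H3K27me3 was lower in aged NSPCs at the 3 most abundant transcripts. Vim went from 1.44 in young adult to -0.72 in aged NSPCs, Fabp7 from 1.26 to -2.33 and Nes from 0.66 to -1.37. Of the 35 windows, 6 passed the fold, the 4 of Vim and the 2 of Fabp7, all lower in aged NSPCs, where 1.29% of all windows passed and 0.717% were lower. Nes stayed below the level of 1. With the level at 0, 14 of the 35 windows passed, all lower, in Vim, Fabp7, Nes, Msi1 and Nr2e1 (background 6.18%, and 4.28% lower). H3K27me3 did not exceed the Input of the same age in any window of these 3 genes, so the values do not show whether the mark itself was present or lost. The young adult value was below the young adult Input in all 3, with an Input of 2.03 at Vim, 1.72 at Fabp7 and 0.81 at Nes. The Input moved as well, to 1.10 at Vim and 0.77 at Fabp7, and to 0.99 at Nes. After subtraction of each age's own Input, the differences were -1.23, -2.64 and -2.22, and 0 of the 35 windows passed, since the Input-subtracted level of these 3 genes was below 0 at both ages.

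These falls went with RNA abundance across the genome. Of the genes with a mean H3K4me3 above 5 (10067 genes), the 24 with an RNA level above 10 log2 RPM had a median H3K27me3 difference of -1.06 and a median Input difference of -0.33, and all 24 were lower in aged NSPCs. The 21 of them outside the set had medians of -0.97 and -0.31, with H3K27me3 differences from -3.45 to -0.02. At 8 to 10 log2 RPM the median H3K27me3 difference was -0.32 (241 genes), at 4 to 6 it was -0.13 (4360 genes) and at or below 0 it was 0.03 (802 genes). In young adult NSPCs the median H3K27me3 level was 0.82 in the most abundant class and -0.21 at 8 to 10, and in aged NSPCs it was -0.47 and -0.54. Eef1a1, a translation factor gene outside the set, went from 2.61 to 0.12 in H3K27me3 and from 2.55 to 1.58 in Input. The aged H3K27me3 values in the set were low, above 1.84% of all genes with a window for Fabp7, 7.12% for Nes and 20.3% for Vim. Within the 10067 genes Fabp7 had the lowest difference of all, Vim the 15th and Nes the 20th. The part of RNA abundance or of the Input in these differences was not tested.

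**Figure D4:**
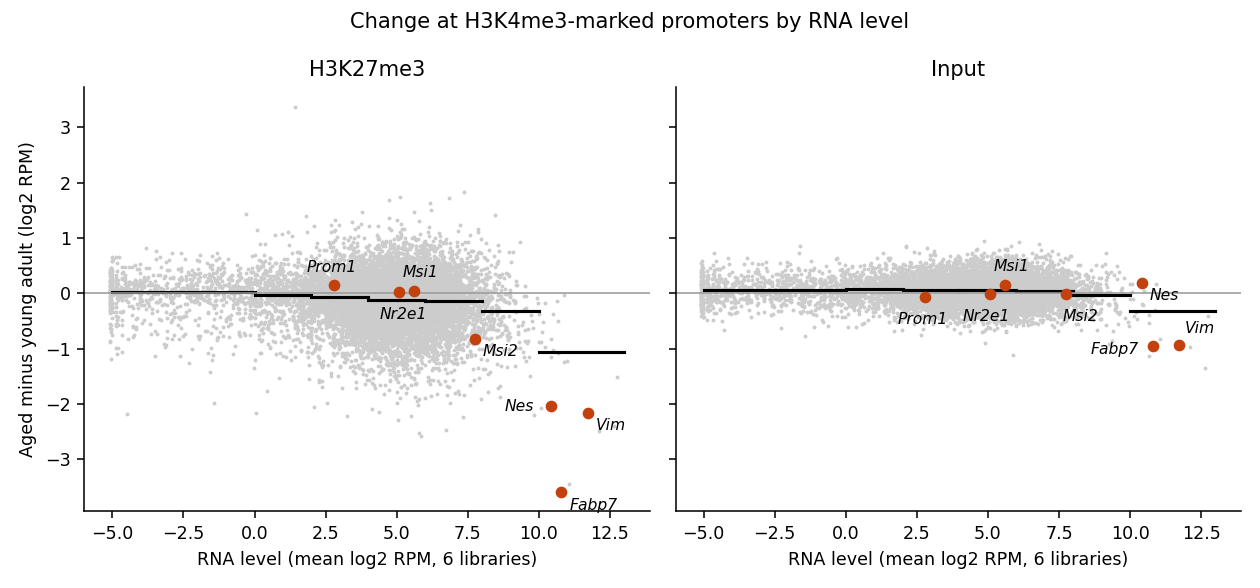
Aged minus young adult log2 RPM of H3K27me3 (left) and Input (right) against RNA level (mean log2 RPM of 6 libraries) for genes with a mean H3K4me3 above 5, 1 window per gene, with the 7 expressed genes in orange and the median of each RNA class as black bars. The medians fall from 0.03 to -1.06 for H3K27me3 and from 0.05 to -0.33 for Input, and Fabp7, Vim and Nes lie below the bar of their class for H3K27me3.

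Bisulfite libraries (BS) read 5mC and 5-hydroxymethylcytosine together, and oxidative bisulfite libraries (oxBS) read 5mC alone. The 6 oxBS libraries held 13616283 to 21389132 calls at 1.204 to 1.323 calls per covered position, so calls were summed over windows. Intervals and limits cover counting error only.

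Directly before the start site, 5 of the genes marked by H3K4me3 had no methylated oxBS call. In the printed 250 bases, 0 of 94 oxBS calls over 15 CpGs were methylated at Nes, which allows up to 3.19%, 0 of 53 over 8 CpGs at Vim (up to 5.66%) and 0 of 24 over 4 CpGs at Fabp7 (up to 12.5%). In the matching stretch of Nr2e1 0 of 109 calls were methylated (up to 2.75%) and in that of Msi2 0 of 27 (up to 11.1%). At Thbs4, low in H3K4me3 and with H3K27me3, 3 of 73 calls (4.11%) were methylated.

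The 2 start sites of Prom1 differed. In the downstream stretch, which lacked H3K4me3, 27 of 31 oxBS calls (87.1%) over 3 CpGs were methylated. In the upstream stretch, under both marks, 12 of 73 oxBS calls (16.4%) over 9 CpGs were methylated, 3 of 32 in young adult and 9 of 41 in aged NSPCs. The BS libraries differed less there, with 7 of 36 calls (19.4%) methylated in young adult and 11 of 49 (22.4%) in aged NSPCs. Counted from the 5′ end of the printed sequence, 2 of 3 oxBS calls were methylated at the CG at base 8, 2 of 4 at base 26 and 4 of 9 at base 192. At base 76 it was 0 of 11, and at bases 187 and 205 it was 0 of 8 each.

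**Figure D5:**
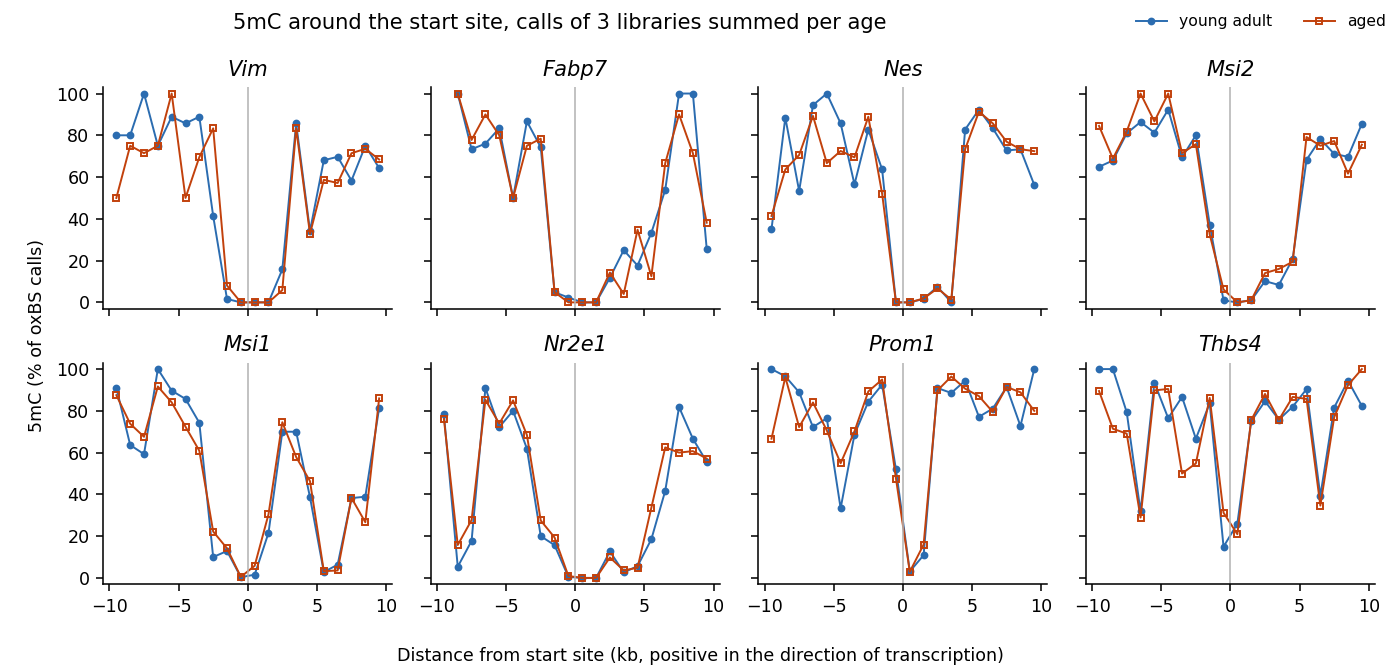
5mC (percent of oxBS calls) in bins of 1000 bp against the distance from the start site with the highest H3K4me3, calls of 3 libraries summed per age, young adult as filled circles and aged as open squares. Each gene has a trough at its start, wide and near 0 at Vim, Fabp7, Nes and Nr2e1 and narrow at Prom1, where the bin before the start is at 51.9% and 47.6% and the one after it at 3.1% and 3.0%.

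The trough in 5mC had a different width in each gene. At Nes the calls in the first 4 bins downstream stayed at 7.5% or below in both ages, and at Nr2e1 the first 2 bins downstream held 0% methylated calls. At Prom1 the bin before the start had 51.9% of 77 young adult and 47.6% of 82 aged calls methylated, the bin after it 3.1% of 226 and 3.0% of 135, and the third bin downstream 90.9% of 55 and 89.7% of 39. At Thbs4 the bin before the start was at 14.9% of 67 and 31.2% of 32 calls and the bin after it at 26.0% of 100 and 20.9% of 129.

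Over the whole 5000 bp windows, 5mC at Thbs4 averaged 44.7% ± 12.5 (SD over 3 libraries) in young adult and 44.9% ± 9.86 in aged NSPCs, and at Prom1 25.9% ± 2.68 and 28.5% ± 2.24. It was 1.26% ± 1.501 and 1.49% ± 1.08 at Vim, 9.51% ± 3.25 and 4.55% ± 1.83 at Nes, 9.72% ± 9.51 and 10.7% ± 7.70 at Fabp7, 8.504% ± 2.36 and 13.01% ± 6.23 at Msi1, 9.06% ± 2.56 and 8.89% ± 5.96 at Msi2 and 4.11% ± 1.97 and 5.67% ± 5.45 at Nr2e1. Median levels over all windows were 33.7% and 34.8%. The quasi-binomial model called 0 of 23796 windows (background 0%) and 0 of the 8, with 1292 windows (5.43%) at an unadjusted p under 0.05.

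Nes was the 1 gene of the 8 at an unadjusted p under 0.05. Its young adult oxBS libraries had 10 of 131, 10 of 131 and 13 of 98 calls methylated and its aged libraries 8 of 120, 9 of 258 and 5 of 143. That is 7.63% (Wilson 95% interval 4.199 to 13.5), 7.63% (4.199 to 13.5) and 13.3% (7.92 to 21.4) against 6.67% (3.42 to 12.6), 3.49% (1.85 to 6.50) and 3.50% (1.503 to 7.92). The ages did not overlap, as in 10.5% of all windows, and the difference of -4.96 percentage points did not pass the quasi-binomial model across all windows (adjusted p = 0.914, unadjusted p = 0.0389; limma's squeezeVar for the dispersion). Without young adult replicate 3 the difference was -3.08 percentage points, with an unadjusted p of 0.151 in the same quasi-binomial model. The BS libraries went the other way, with 5.36% ± 0.836 (SD, n = 3) in young adult and 8.17% ± 2.22 in aged NSPCs. The young adult BS value lay below the oxBS value of 9.51%, although BS reads 5-hydroxymethylcytosine as well. The opposite directions are therefore not read as changes in separate marks. Within 1000 bp of the start, 0 of 660 oxBS calls were methylated in any library.

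Prom1 and Thbs4 had separate ranges in 1 reading each. Within 1000 bp of the start, Prom1 was at 11.7%, 15.8% and 18.3% in young adult and 18.8%, 23.5% and 19.7% in aged oxBS libraries, as 9.56% of all such windows had ages that did not overlap. Its young adult and aged ranges overlapped in the BS libraries (9.24% of all such windows did not) and over the whole window. Thbs4 was at 49.8% ± 3.07 (SD, n = 3) in young adult and 59.8% ± 2.88 in aged BS libraries, which did not overlap either (9.59% of all windows), but its oxBS ranges did.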

How the data were processed

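RNA-seq, native ChIP-seq, BS-seq and oxBS-seq of SVZ NSPCs on GRCm38 were used as deposited. The log2 RPM of RNA and of ChIP windows were computed by the authors, the latter as 1 value per age over the replicates, and the counts of methylated and unmethylated calls per CpG were deposited per library. Which aligner served which assay is not stated in the sources used. Percentages in those deposited files were not used.

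Whole reads were recovered from log2 RPM. Among low and moderate counts, 100% of values lay within 0.02 reads of a whole number. Higher counts, among them those of Nes, Vim, Fabp7 and Msi2, were rounded without this check. A gene without a read held the value of 0.9 reads. Genes averaging a log2 RPM of -2 or more were tested with limma 3.58.1 (mean-variance trend, Benjamini-Hochberg, threshold 0.05, R 4.3.3), with edgeR 4.0.16 and DESeq2 1.42.0 on whole reads as alternatives. For 5mC, calls were summed over 1 window per gene with at least 10 calls in every library and fitted by a quasi-binomial model with squeezeVar. Both fits were tested on simulated data. ChIP windows had no test.

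Replicate numbers are shared by the ages. Across 14858 genes the deviations of same-numbered RNA libraries correlated at 0.659, 0.179 and 0.724, all over 0.1, and libraries sharing a number were treated as pairs; the study's derivations were made on different days. The replicates are pooled cultures, and p-values measure the spread between these.

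Genes named are the 8 members and, per list, those past the threshold or the 2 with the largest difference, and each member's nearest profile. Eef1a1 and Dll1 were chosen after their values were seen. The genes named with the astrocyte and oligodendrocyte lineage sums were likewise chosen by their level in those sums. The members and lists were chosen with earlier results of these data known. Alternatives were another scaling, filter, pseudocount, test, window, assay or fold, the replicate block and leaving out each library. Counts over 2 of the lists are not reported here.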

Additional observations from a re-analysis of the deposited data

Results flagged for a closer look

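Msi2 was higher in the aged library in 3 of 3 replicate numbers of C57BL/6J/Babr and lower in the aged library of the C57BL/10 pair, by -0.094 on the log2 scale. The difference between the strains in the effect of age was -0.19 ± 0.18 and did not pass the limma interaction test (adjusted p = 1.00 without and 0.895 with the replicate block), with 1 C57BL/10 library per age.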

How the results depend on the processing

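Between ages, DESeq2 called 4 genes, limma with the replicate block 74 and edgeR with the block 83, against 0, and 0 with any library left out. The block changed no call among the 7 genes tested. For 5mC, same-numbered libraries correlated at 0.007, 0.005 and 0.020, so the numbers were not taken to pair them, and the block called 0 windows. Between strains, edgeR called 2572 genes and leaving out a library gave 1425 (without the young adult C57BL/10 library) to 4638, with 0 to 1 of the 7 genes, and quantile normalization called 3 of them. For the interaction, edgeR called 0 genes, the block 36 and leaving out a library 0. H3K4me3 windows past the fold numbered 27 at a fold of 2 (0 of the 35). At a fold of 1.2 they numbered 9482, or 13.003% of all windows (2 of the 35). Above a log2 RPM of 0 they numbered 1561 (0 of the 35) and with Input subtracted 1972 (6 of the 35). With 1 window per gene they numbered 55 of 25887 (0 of 8). H3K27me3 windows numbered 101 at a fold of 2, or 0.139% of all (6 of the 35). At a fold of 1.2 they numbered 6564, or 9.001% (7 of the 35). Above a log2 RPM of 0 they numbered 4506, or 6.18% (14 of the 35). With Input subtracted they numbered 714, or 0.979% (0 of the 35), and with 1 window per gene 389 of 25887 (2 of 8).

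Directions turned for Nes between ages under quantile normalization (0.070). Leaving out a library gave -0.060 to 0.039 for Nes, -0.39 to 0.035 for Fabp7 and -0.24 to 0.062 for Msi1, and, without turning, -0.29 to -0.085 for Vim, -0.10 to -0.026 for Nr2e1, -0.39 to -0.18 for Prom1 and 0.058 to 0.16 for Msi2. Between strains edgeR gave -0.15 for Fabp7 (leaving out a library, -0.11 to 0.22) and -0.041 for Prom1 (-0.14 to 0.38), and leaving out a library gave -0.25 to -0.055 for Nr2e1. It gave interactions of -0.56 to -0.12 for Fabp7, -0.11 to -0.015 for Nes, -0.10 to 0.20 for Msi1 and -0.15 to 0.047 for Vim. In 5mC, in percentage points, BS libraries gave -2.03 for Fabp7, -2.94 for Msi1, 2.26 for Msi2, 2.81 for Nes and -0.56 for Vim, and 1000 bp on either side gave -1.11 for Fabp7, 2.90 for Msi2 and -3.12 for Thbs4. Leaving out a library gave -3.33 to 6.46 for Fabp7, -3.14 to 2.82 for Msi2, -6.02 to -3.08 for Nes, 1.18 to 7.35 for Msi1, 1.47 to 4.06 for Prom1, -1.44 to 3.89 for Nr2e1, -6.23 to 6.22 for Thbs4 and -0.40 to 1.06 for Vim. The cause was not tested. The depth of 45 to 351 calls per library and window limits 5mC, and 1 value per age limits ChIP.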
